A study of Drosophila melanogaster with 4 samples.

Results

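Isolated autosomal Hairy peaks are the sites of Hairy ChIP signal that stand alone on the 2 large autosomes of Drosophila melanogaster. They were chosen by the position and called width of peaks in the deposited list: a peak on arm 2L, 2R, 3L or 3R, under 2000 bp wide, with more than 5000 bp to the nearest other peak of the full list on each side. This gave 732 peaks of 13577 in all, or 6.93% of the 10565 peaks on these 4 arms. The list came from 3 chromatin immunoprecipitation (ChIP-seq) libraries made with KW3-h-D1, a polyclonal rabbit antibody raised against a Hairy peptide, and 1 input library of unenriched chromatin. All 4 libraries came from Kc167, a female embryo-derived cell line labelled as late embryonic and of genotype se/e, with no treatment named. The 3 ChIP libraries are numbered as replicates, and nothing in the labels says whether they came from separate cultures. Each peak has 1 score and none of the libraries has a value of its own, so nothing below carries an error between replicates.

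Hairy is a basic helix-loop-helix protein of the Hairy/Enhancer of split family. It represses transcription by recruiting the corepressor Groucho through a short motif at its C-terminal end, and it is classed as a long-range repressor because it can silence enhancers at a distance along the DNA. In the embryo it is best known as a pair-rule gene product in segmentation. The question addressed by the study was where on the genome Hairy is bound in these cells. Coordinates are on FlyBase release 5; no sequence or annotation of that release was used, so no peak is assigned to a gene or a motif.

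Width and spacing chose these peaks, and the score comes from the same ChIP signal. Their values are therefore a description, set beside other peaks without a test. The score was taken to be the authors' −log10 p-value. Most scores fall on the steps that whole numbers of fragments give over 1 constant background of 157.836 fragments, and from these steps a fragment count and a fold over that background were recovered for each peak. The part of a peak that this count refers to is not given. A peak whose score lies more than 0.01 from every step is called off the constant background. MACS can score a peak against a higher background measured around it, and for such a peak the true fold over the constant background is at least the value given. Intervals on folds are exact 95% Poisson intervals and those on shares are exact 95% binomial (Clopper-Pearson) intervals; both cover counting error only, and fragments amplified by PCR and peaks of 1 list are not independent. The depth of the 4 libraries is unknown.

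Averaged over each arm, the density of lone peaks varied less between the 4 arms than that of all other peaks. Arm 3L had 201 isolated peaks, 3R had 211, 2R had 166 and 2L had 154. Per Mb of the span from position 1 to the last peak, this was 8.19 on 3L, 7.96 on 2R, 7.56 on 3R and 6.69 on 2L, so that the highest arm exceeded the lowest by 1.22-fold. Arm 2R carried 131 other peaks per Mb, 3R carried 117, 2L carried 86.7 and 3L carried 74.9, a spread of 1.75-fold. Arm 3L, with the fewest peaks of all kinds, thus had the highest density of isolated ones: 9.86% of its 2039 peaks stood alone, against 7.17% on 2L, 6.06% on 3R and 5.73% on 2R. The requirement of open space on both sides favours sparse sequence, so these shares follow in part from the rule. Neither DNA copy number nor read depth was measured along the chromosomes.

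**Figure D1:**
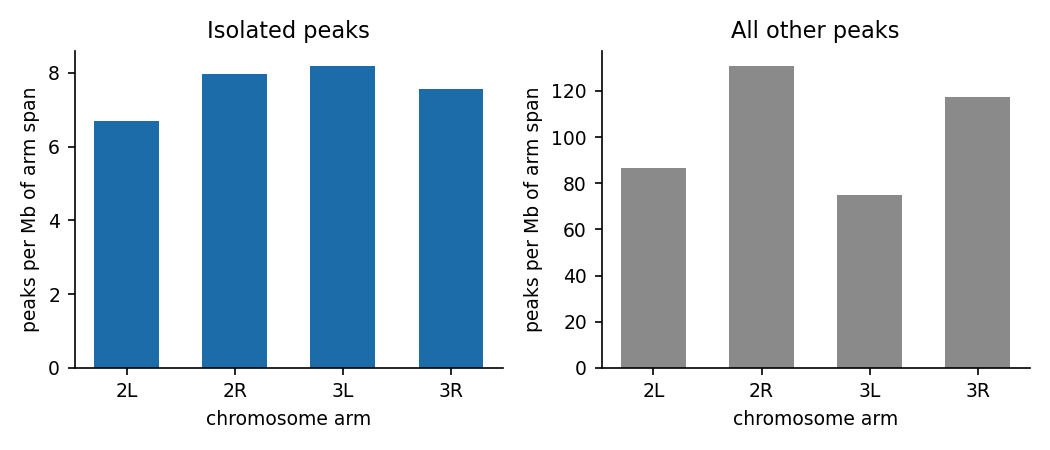
Peaks per Mb of arm span on 2L, 2R, 3L and 3R, for the 732 isolated peaks (left) and all other peaks of the same arms (right); each bar is 1 arm, and the panels have different vertical scales. Isolated peaks range from 6.69 to 8.19 per Mb and other peaks from 74.9 to 131 per Mb.

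Within the arms the density of isolated peaks was uneven. In the 46 complete windows of 2 Mb, their number ran from 6 to 27 with a median of 14, while the number of all peaks ran from 39 to 476 with a median of 238.5. Every one of these windows therefore held isolated peaks. Of the 965 bins of 100 kb on the 4 arms, 491 held at least 1 isolated peak, and no bin held more than 5. There were 127 bins in which isolated peaks were the only peaks, with 184 peaks between them.

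The distance from an isolated peak to its nearest other peak was 12198.5 bp in the median (quartiles 7173.25 and 26086.5 bp). On the farther side the median was 47125.5 bp. The nearest peak lay more than 10000 bp away for 429 of the 732, more than 50000 bp away for 86 and more than 100000 bp away for 20. Over the ranks of all 732 peaks, distance and score had little relation. Spearman rho was 0.08 for the nearer side and 0.09 for the farther side, and all points come from the same 4 libraries. A fold of 3 was reached by 1.65% of the 303 peaks with the nearest peak up to 10000 bp away (interval 0.538 to 3.81). At 10000 to 20000 bp it was 1.63% of 184, and at 20000 to 50000 bp 5.66% of 159 (interval 2.62 to 10.5). Beyond 50000 bp it was 8.14% of 86 (interval 3.34 to 16.1). The last 2 bands together, beyond 20000 bp, gave 6.53% of 245 (interval 3.78 to 10.4). Of all 13577 peaks, 1.19% reached this fold.

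The peak farthest from any other lay on 3L from 24021286 to 24021690, 312895 bp from its left neighbour and 363926 bp from its right one. Its score was 33.28, a fold of 2.10 (interval 1.88 to 2.34). It sits in a sparse stretch near the centromere, with other far-standing peaks of 3L on either side. The peak from 23331059 to 23332542 had a score of 57.05 and a fold of 2.52 (interval 2.27 to 2.78). The peak from 23707711 to 23708390 had a score of 52.29 and a fold of 2.44. On the other side, the peak from 24385617 to 24385930 had a score of 35.21 and lay off the constant background. All 4 of these 3L peaks exceeded a fold of 2.

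Elsewhere the farthest-standing peaks were mostly weaker. The second farthest, on 3L from 6735328 to 6735723, was 220747 bp from its nearest neighbour and had a score of 13.2, a fold of 1.64 (interval 1.45 to 1.85). On 3L from 13221667 to 13221903 a peak of 237 bp scored 11.08. On 2L, the peak from 5476548 to 5477059 scored 19.98, that from 5799667 to 5799994 scored 10.88 and that from 7188236 to 7188919 scored 24.68. The only one of the 10 on 3R, from 1833228 to 1834664, scored 49.59, a fold of 2.39 (interval 2.16 to 2.65). None of the 10 was on 2R. Of the 38 ends of the 19 intervals of at least 300 kb without a peak on these arms, 24 were isolated peaks; such an end has open space on 1 side already, which the rule asks for.

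The peaks on either side of an isolated peak were of several kinds. The 732 peaks had 1460 neighbours, where a peak next to 2 isolated peaks counts for each of them. Of these, 608 (41.6%) were themselves isolated peaks under 2000 bp and 815 (55.8%) were narrow peaks of denser groups. A further 32 were peaks of 2000 bp or more in denser groups and 5 were isolated peaks of 2000 bp or more. Counted once each, 479 of the isolated peaks had another of them as a neighbour. A neighbour of an isolated peak has over 5000 bp free on the side facing it by the rule, so a raised share of isolated neighbours is built in. Successive isolated peaks with no other peak between them formed 428 chains, of which 253 held a single peak and 14 held at least 5. The longest ran over 853 kb on 2L, from 5108464 to 5961920, with 8 peaks that scored between 9.89 and 21.32 (median 11.91). All 8 lay on the constant background. A chain of 7 on 3L, from 9070128 to 9351688, was more mixed, with scores from 11.08 to 81.7, and 3 of its peaks lay off the constant background. A chain of 6 on 2R from 15713838 to 16124727 held both a score of 8.22 and one of 221.03.

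Isolated peaks scored both above and below their neighbours. An isolated peak scored higher than every neighbour it had in 245 cases, higher than 1 of 2 neighbours in 262 and higher than none in 225. Of the 1460 comparisons behind these counts, 608 were between 2 isolated peaks. Each such comparison enters from both sides, so their near-even outcome (301 of 608 higher) is fixed in advance. These counts therefore do not tell whether a lone position goes with a low or high score. Against the 815 narrow neighbours in denser groups, the isolated peak scored higher in 447 comparisons (54.8%). Against the 32 neighbours of 2000 bp or more in such groups, it scored higher in 1.

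Isolated peaks were small and mostly modest in height. Their median width was 418.5 bp (quartiles 297.75 and 659 bp), and together they covered 386011 bp. The median score was 15.96 (quartiles 11.49 and 26.4), and the median fold was 1.72 (quartiles 1.59 and 1.96). At the lower end, the peaks on 3L from 20834059 to 20834330 and on 3R from 9843400 to 9843613 both scored 6.86, which is 226 fragments and a fold of 1.43 (interval 1.25 to 1.63). The next lowest, on 2L from 13602329 to 13602604, scored 7.19. A fold of at least 2 was reached by 167 isolated peaks (22.8%, interval 19.8 to 26.0), against 18.8% of all 13577 peaks. A fold of 3 was reached by 24 (3.28%, against 1.19% of all peaks) and a fold of 4 by 8 (1.09%, against 0.287%).

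**Figure D2:**
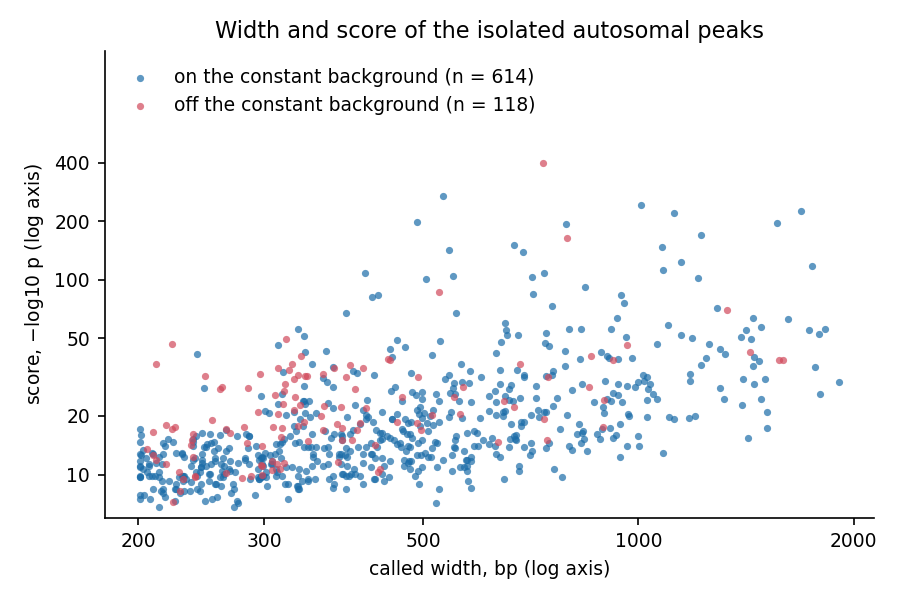
Score (−log10 p) against called width of the 732 isolated autosomal peaks, both on log axes; each point is 1 peak, in blue for the 614 on the constant background and in red for the 118 off it. The highest point has a score of 396.77 at 736 bp, and red points are most frequent below 400 bp.

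The strongest isolated peaks were among the strong Hairy sites of the whole list. The first was on 2R from 16771617 to 16772352, only 736 bp wide, with a score of 396.77. It had 47517 bp of empty sequence to its left and 92056 bp to its right. Its recovered count of 947 fragments is a fold of 6.00 (interval 5.62 to 6.39), which is a lower limit because it lay off the constant background. The highest on 3R, from 12624331 to 12624864, was narrower still at 534 bp and scored 270.7, a fold of 4.92 (interval 4.58 to 5.27). The intervals of these 2 peaks do not overlap. Next by score came 3R from 7094166 to 7095174 (242.11), 3R from 26959073 to 26960758 (225.59) and 2R from 15884584 to 15885706 (221.03). Their folds, 4.65, 4.49 and 4.45, lie within one another's counting intervals.

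Of the 15 isolated peaks with the highest score, arm 3R held 6, 2R held 5 and 3L held 4, while 2L held none. The best on 3L was a peak of 491 bp from 18841533 to 18842023, at a score of 198.69 and a fold of 4.23 (interval 3.91 to 4.56). Further 3L peaks among the 15 lay from 17981105 to 17981896 (score 193.69), from 20704381 to 20704924 (142.75) and from 16762783 to 16763472 (139.4). On 3R, the peak from 20937434 to 20938994 scored 195.56. Neighbouring peaks on 3R were both strong: the peak from 7137455 to 7138677, with a score of 169.95, was separated from the one at 7094166 by 42280 bp without a called peak. The remaining one on 3R, from 788110 to 788905, scored 164.71 and lay off the constant background. Arm 2L lacked isolated peaks of this height, though peaks of 2000 bp or more in its denser groups scored up to 405.17. Its highest isolated peak, from 11904178 to 11904682, scored 100.87, a fold of 3.13 (interval 2.86 to 3.42), and the next, from 19887451 to 19887883 and from 13059735 to 13060688, scored 83.55 and 76.23. The medians of the arms did not follow this order, with 17.46 for 2L, 16.68 for 3R, 15.6 for 2R and 14.78 for 3L.

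Near the centromere, the isolated peaks of 3 arms were higher, and also wider, than on the rest of the arm. In the proximal 1.5 Mb of 2R, the 18 isolated peaks scored 43.17 in the median and the other 148 of that arm 14.7. Of these, 3 that rank among the 15 highest of all followed each other near the start of the arm: 18123 to 19201 (score 147.83), 75285 to 75954 (150.11) and 129955 to 131101 (124.11). On 3L, the 7 proximal peaks had a median of 50.36 and the other 194 had 14.1. A fold of 2 was reached by 6 of the 7 (interval 42.1 to 99.6%), by 33 of the other 194 and by 18.8% of all peaks. On 3R, 17 proximal peaks had a median of 28.13 against 16.44. Off the constant background lay 12 of the 17, 16 of the other 194 and 28.2% of all peaks. On 2L, 13 proximal peaks had a median of 17.17 against 17.57. Median widths of proximal and other isolated peaks were 647 and 416 bp on 2R, 654 and 391 bp on 3L and 670 and 476.5 bp on 3R; scores at equal width were not compared here. Higher scores of all peaks at the proximal ends of 2R and 3L were known before, so this is no independent support for them. Peaks that were not isolated were not compared at the proximal ends here.

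At equal width, isolated peaks reached higher scores than peaks with a neighbour within 5000 bp. Those crowded peaks under 2000 bp, 9224 on the same arms, had a similar median width of 457 bp, a median score of 14.78 and a fold of at least 2 in 13.5% of cases (interval 12.8 to 14.2). In each of the 6 width bands under 2000 bp the median score was higher for isolated peaks, from 11.28 against 10.68 at 200 to under 300 bp to 38.5 against 28.23 at 1000 to under 2000 bp. From 500 to under 750 bp, 28.0% of 143 isolated peaks reached a fold of 2 (interval 20.8 to 36.1), against 10.9% of 1722 crowded ones (interval 9.43 to 12.4). From 1000 to under 2000 bp the shares were 71.2% of 66 (interval 58.7 to 81.7) and 50.4% of 1519 (interval 47.9 to 53.0). In this band 6.06% of the isolated and 28.6% of the crowded peaks lay off the constant background. From 200 to under 300 bp these shares were 19.9% and 30.8%. A higher background around a peak lowers its score, and folds off the constant background are lower limits. The 2 groups were not compared on the constant background alone. Width followed score less closely among isolated peaks, with a Spearman rho of 0.60 over 732 peaks against 0.73 over the crowded ones, where both measures come from the same called signal. With peaks at most 500 bp apart joined into 1 region before the rule was applied, 871 isolated regions had a median score of 16.2 and the 3753 others under 2000 bp one of 14.2. The same rule on the X chromosome gave 143 peaks with a median score of 17.67, of which 25.9% reached a fold of 2.

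**Figure D3:**
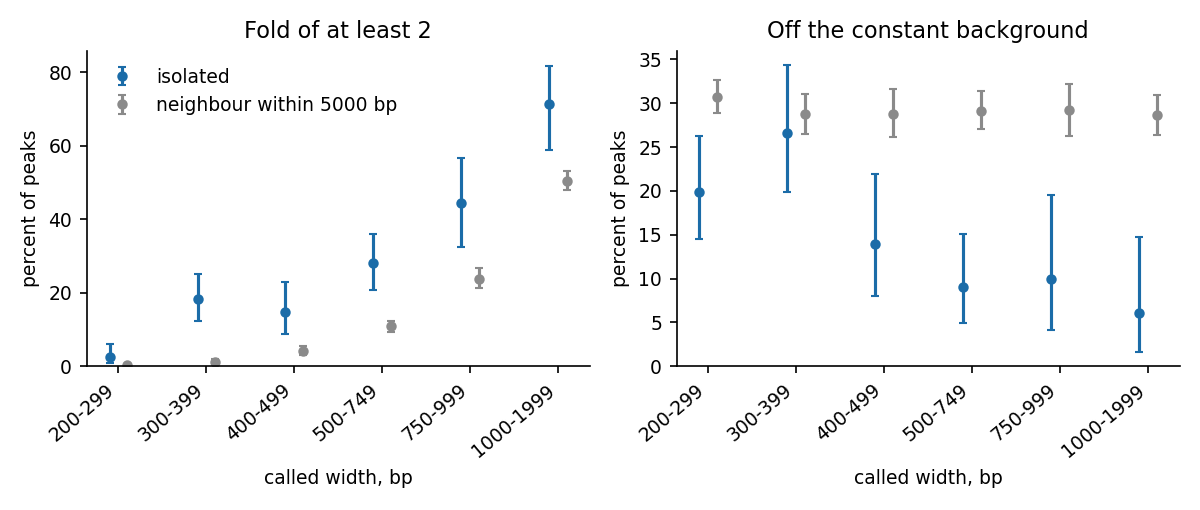
Percent of peaks with a fold of at least 2 (left) and percent off the constant background (right) by called width, for isolated autosomal peaks (blue) and for autosomal peaks with a neighbour within 5000 bp (grey); points are shares and bars exact 95% binomial intervals. At 300 to under 400 bp, 18.2% of isolated and 1.26% of crowded peaks reach a fold of 2, and off the constant background the isolated share falls to 6.06% at 1000 to under 2000 bp while the crowded share stays between 28.6% and 30.8%.

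As a ratio of shares, the difference at a fold of 2 was larger for narrow peaks, while in percentage points it was larger for wide ones. Under 400 bp, 33 of 345 isolated peaks reached a fold of 2 (9.57%, interval 6.68 to 13.2), against 26 of 3963 crowded peaks (0.656%, interval 0.429 to 0.960). Arms 2L and 3R held 10 each of these 33, 3L held 7 and 2R held 6, and their scores went up to 67.88. Off the constant background were 18 of the 33 and 61 of the 312 isolated peaks of the same width below a fold of 2. Crowded peaks under 400 bp showed the same order, with 13 of 26 at a fold of 2 and 1174 of 3937 below it. The limit of 400 bp was set after the values were seen.

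A smaller share of isolated than of crowded peaks lay off the constant background. It was 118 of 732 (16.1%, interval 13.5 to 19.0), against 28.2% of all peaks and 29.4% of the crowded peaks under 2000 bp. It was lower in each arm: 24.0% against 49.4% on 2L, 17.4% against 32.7% on 3L, 13.3% against 19.5% on 3R and 10.8% against 24.5% on 2R. The rule keeps other peaks over 5000 bp away, and the higher background that MACS can use is measured around the peak. The lower share may therefore follow in part from the rule, which was not tested. The 118 peaks were narrower than the other 614, with a median of 334 bp against 449 bp, and had a median score of 19.8 against 15.24. Among the widest isolated peaks, of 1000 to under 2000 bp, 4 of 66 lay off the constant background. The library from which such a background was measured, ChIP or input, is not stated.

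This share did not change evenly with distance. It was 18.0% of 89 peaks whose nearest other peak lay over 5000 and up to 6000 bp away, 42.2% of 83 peaks at 6000 to 7000 bp (interval 31.4 to 53.5) and 11.1% of 54 peaks at 7000 to 8000 bp (interval 4.19 to 22.6). At 8000 to 10000 bp it was 20.8%, at 10000 to 20000 bp 7.61%, at 20000 to 50000 bp 11.3% and beyond 50000 bp 15.1%. The band of 6000 to 7000 bp also had the narrowest peaks, with a median of 350 bp, and its median score of 20.34 was above those of all 6 other bands.

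**Figure D4:**
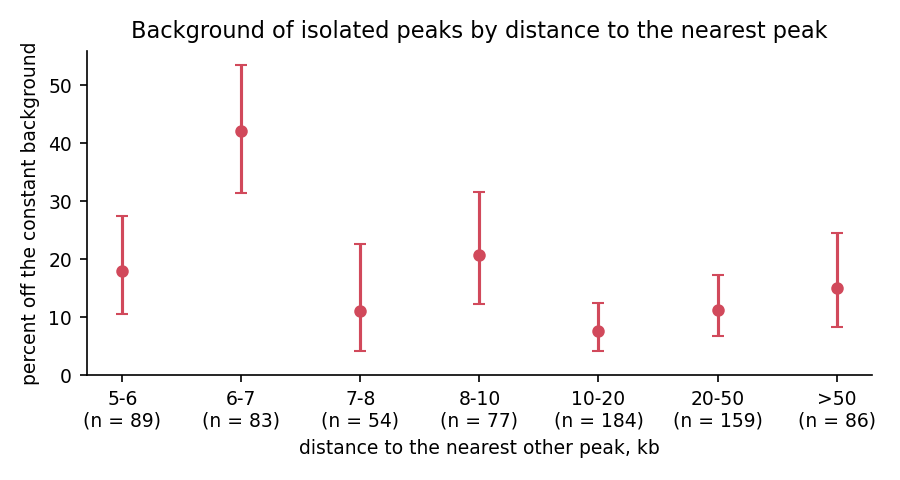
Percent of isolated autosomal peaks off the constant background, by distance to the nearest other peak in kb; points are shares, bars exact 95% binomial intervals and n the number of peaks in each band. The band from 6 to 7 kb, at 42.2%, stands above the bands on both sides of it, at 18.0% and 11.1%.

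Seen as pairs of successive peaks, some of the isolated peaks off the constant background had a recurrent spacing. Among successive autosomal peaks of which at least 1 was isolated, 44 pairs had midpoints 6750 to under 7250 bp apart, and in 17 of them both peaks lay off the constant background (38.6%, interval 24.4 to 54.5). For pairs 5500 to under 6750 bp apart this held for 8 of 84 (9.52%, interval 4.20 to 17.9), and for pairs 7250 to under 10000 bp apart for 13 of 126 (10.3%, interval 5.61 to 17.0). Only 6 pairs lay 5250 to under 5500 bp apart, just above the smallest distance the rule allows, and both peaks lay off it in 4 of these. The 17 pairs at 6750 to under 7250 bp had midpoints 6794 to 7109 bp apart, with a median of 6938.5 bp. Arm 2L held 7 of these pairs, 3R held 5, 3L held 4 and 2R held 1. In 10 of them both peaks were isolated, which makes 27 isolated peaks in all, of the 118 off the constant background. Pairs with no isolated peak were not examined for this spacing. Of these 27, 22 were under 500 bp wide; their median width was 337 bp and their scores ran from 10.33 to 49.77 with a median of 24.0. The bounds of this spacing were set after the values were seen.

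The 2 peaks of such a pair differed in score by at most 1.5-fold in 10 of the 17 pairs and by more in 7, and in width by at most 1.5-fold in 12 and by more in 5. How alike other pairs are was not compared. On 3R, a peak of 334 bp from 13401170 to 13401503 (score 32.32) was followed at 7002 bp by one of 344 bp from 13408167 to 13408510 (score 32.18). The score of 32.32 is close to 32.31, a score called on the constant background, so its call as off is marginal. On 2L, a peak of 254 bp from 1220254 to 1220507 (score 19.07) was followed at 7030 bp by one of 330 bp from 1227246 to 1227575 (score 21.51). A further 2L pair, from 10156387 to 10156777 and from 10163393 to 10163711, scored 31.87 and 22.98. On 3L, the pair from 4328838 to 4329239 and from 4335936 to 4336163 had the largest ratio of scores, at 27.38 and 10.33. The 3R pair from 564285 to 565715 and from 571650 to 571979 had the largest ratio of widths, at 1431 and 330 bp. These pairs are named as examples, chosen after their values were seen. Repeated sequence in the genome and the placement of reads on it were not analysed here. The score medians and shares without the 27 peaks differ little: 15.6 for the median score and 22.3% for a fold of 2, while the share off the constant background is 12.9% without them.

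**Figure D5:**
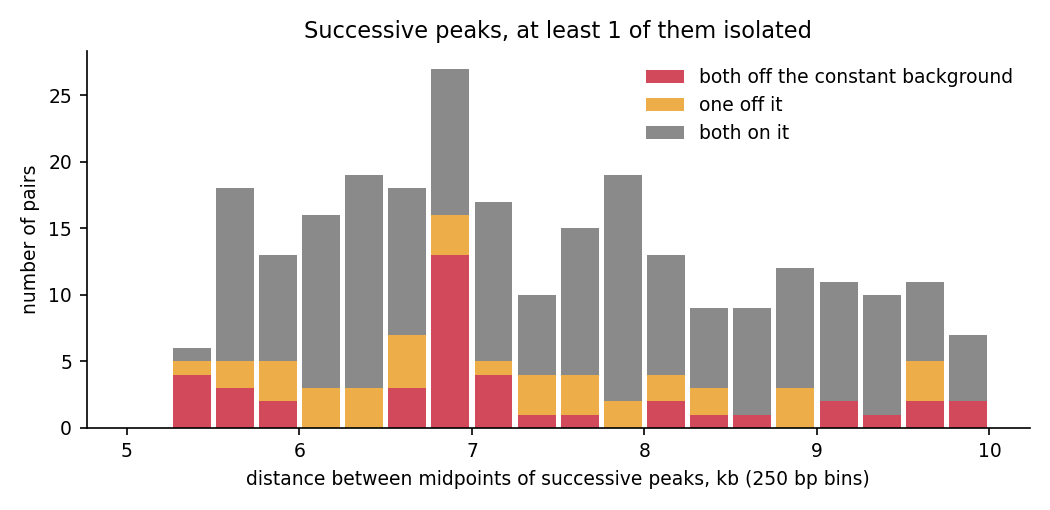
Number of pairs of successive autosomal peaks, at least 1 of them isolated, by the distance between their midpoints in bins of 250 bp; colours give whether both peaks, 1 of them or neither lay off the constant background. The bin from 6750 to under 7000 bp has 13 pairs with both peaks off it, more than any other bin shown.

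At the limits of the rule, peaks just inside and just outside were close in width or distance by construction. The widest isolated peaks, on 3R from 7069087 to 7070996 (1910 bp) and on 2L from 22260915 to 22262735 (1821 bp), scored 29.78 and 56.24. The narrowest isolated peaks over the width limit, on 3R from 20173319 to 20175338 (2020 bp) and from 17663166 to 17665206 (2041 bp), scored 27.93 and 33.28. Only 12 autosomal peaks that met the distance rule were 2000 bp or wider, with a median score of 34.8. The closest pair that met the distance rule, on 3L from 3349458 to 3349676 and from 3354683 to 3355027, were 5006 bp apart and scored 11.39 and 14.85. Just below the limit, the peak on 2R from 12188023 to 12189485 had a neighbour at 4997 bp and scored 57.45, and that on 3R from 22707405 to 22707663 had one at 4994 bp and scored 10.28.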

How the data were processed

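Hairy ChIP-seq of Kc167 cells (3 ChIP libraries and 1 input) is represented by 1 deposited list of peaks. Peaks were called with MACS on FlyBase release 5, per the file headers. BWA, MACS2, BDGP5 and CASAVA (1.7.0.2, 1.7.0.3) are listed in the submitters' processing notes; settings, the use of the input and any pooling are not given there. The score column is not named. It was taken to be the authors' −log10 p-value because 9749 of 13577 deposited scores (71.8%) lay within 0.01 of the Poisson steps over 1 background, against 8.32% for scores at random between steps. That background was set, in steps of 0.001, to place most scores up to 100 within 0.006 of a step. The 71.8% thus counts scores also used in the fit, and the 2 shares are not on equal terms. A count off the steps was taken from the step below.

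Isolated peaks, chains, bands and pairs were computed with Python 3.11.15, numpy 2.4.6, pandas 2.3.3 and scipy 1.17.1. The background fit and the rule for isolated peaks were tested on simulated data. No hypothesis test was run, because the score and the rule share their signal and no value per library exists. The rule and the lists were chosen with earlier results of these data known. Peaks named are the 15 highest scores, the 3 highest of each arm, the 10 farthest from another peak, the 3 lowest scores and those at the limits of the rule; chains, proximal ends and pairs were added after. The only gene table used is on release 6, so no gene was assigned. Other limits of distance and width, joined peaks and tolerances were tried.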

Additional observations from a re-analysis of the deposited data

How the results depend on the processing

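No paired analysis was possible because scores were deposited per peak and not per library, and leaving out a replicate was impossible for that reason. The number of isolated peaks depends on the distance limit: 1166 at more than 2500 bp and 429 at more than 10000 bp. With the 2500 bp limit the median score was 15.01 and 19.0% reached a fold of 2; with a width under 1000 bp these were 15.0 and 18.0%. The share off the constant background was 10.5% with the 10000 bp limit, 19.7% with a tolerance of 0.006 and 12.9% without the pairs spaced 6750 to under 7250 bp apart, the last chosen after seeing the data, as was leaving out each arm. These 9 of 38 alternative values fell outside the 95% interval of the reported value or 1.5 times the reported count. The other 29 stayed inside, among them a share of 14.6% off the constant background with a tolerance of 0.02. Under the tolerance of 0.006 the same 732 peaks are judged more strictly, and under 0.02 less strictly. Under the other settings that gave these 9 values a different set of peaks enters. Under all 5 alternative limits of distance, width and joining, isolated peaks had a higher median score, a higher share at a fold of 2 and a lower share off the constant background than the peaks that were not isolated. How far depth limits the weak peaks was not assessed.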
